A study of Pan troglodytes with 6 samples.

Results

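The genes described here encode the proteins that dock, prime and fuse membrane vesicles: SNAREs, synaptotagmins, complexins, synaptogyrins, synapsins, synucleins and the scaffolds of the presynaptic active zone. They were taken by gene symbol from the array's annotation, as the SYT, SYTL, STX, STXBP, VAMP, SNAP, SYN, CPLX, SV2, SYNGR, RIMS, UNC13 and SNC families with BSN and PCLO, from features that carry 1 symbol each. This gave 59 features and 58 genes, of 12584 genes measured in the series. PCLO had 2 features, and the brighter was kept. Another 12 features name a gene of these families beside a second symbol and were not used, so that STXBP2, STX6, STX16, SYN3, SYT14 and STXBP5 were not analysed here. By what is known of their use, 32 of the 58 genes were sorted as neuronal, 20 as general-traffic paralogs that act in most cells, and 6 were left unsorted. This sorting was made with earlier results of these data known, so it is not independent of them.

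RNA came from the cerebellum and from the liver of chimpanzees (Pan troglodytes), with 3 arrays for each tissue and no treatment or genotype. By the labels, both tissues came from a female aged 27 years (replicate 1) and from males aged 37 years (replicate 2) and 30 years (replicate 3). The labels do not say whether a cerebellum and a liver of the same number are from 1 animal. The RNA was hybridised to Affymetrix Human Exon 1.0 ST arrays, whose probes were designed on the human genome, so a sequence difference between the species can dim a gene in both tissues.

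A SNARE protein carries a helix that zips with the helices of its partners on the opposite membrane and so pulls the membranes together. At the synapse SNAP25, a neuronal syntaxin such as STX1A and a synaptobrevin (VAMP1 or VAMP2) do this work, complexin holds the partly zipped complex, and synaptotagmin triggers fusion when calcium enters. Most other cells use sister proteins for secretion and for traffic between the Golgi, endosomes and lysosomes. Granule cells, the most numerous neurons of the cerebellum, and Purkinje cells are packed with such synapses, while hepatocytes secrete plasma proteins continuously.

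Each value below is an intensity on a linear scale, and the arrays had been brought to the same distribution, with a median of 96.3 on each. Differences are cerebellum minus liver on the scale log2(intensity + 16.8), fitted with limma across all 15143 features. A gene is called when its p adjusted by Benjamini-Hochberg over all features is under 0.05. Intensities of different genes are not compared, since probes differ in brightness. Tissue markers went with the labels. All 6 measured neuron markers and all 5 granule cell markers were higher in cerebellum, and all 5 hepatocyte markers were higher in liver. The summed intensity of the neuron markers was 4828 to 5111 in cerebellum and 130 to 225 in liver, where none of the 6 was at 0 on every array. Liver 3 stood apart in other cell types. Its markers of fibroblasts and stellate cells summed to 3162 against 1028 and 1048 in the other livers, those of macrophages to 3160 against 1750 and 1593, and those of bile ducts to 585 against 234 and 171. Cerebellum 1 stood apart in myelin, where MBP and MAG, the 2 of 5 listed markers that were measured, summed to 4442 against 1048 and 1550 in cerebellum 2 and 3. Cerebellum 2 stood apart in vessel markers, with 213 against 86.1 and 70.6 in cerebellum 1 and 3 for endothelium. Its fibroblast and stellate cell markers summed to 507 against 145 and 213, mostly through DCN, at 474 against 114 and 185. COL1A1 was lowest in cerebellum 2, at 22.6 against 27.6 and 26.3, and LUM was under 16.8 on all 3 cerebellum arrays. In such tissue samples, fewer cells of a type and less RNA per cell cannot be told apart.

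The neuronal genes were higher in cerebellum with few exceptions. Most general-traffic genes were not called, and those called leaned toward liver on the deposited scale. Of the 32 neuronal genes, 29 were higher in cerebellum, 1 was lower and 2 were not called (limma). Of the 20 general-traffic genes, 1 was higher, 6 were lower and 13 were not called, and of the 6 unsorted genes 1 was higher and 1 lower. Over all 58 genes this makes 31 higher and 8 lower. That is 53.4% and 13.8% of them, beside 26.7% and 23.9% of all features, of which 50.6% were called in either direction. For the neuronal genes the shares were 90.6% and 3.12%, and for the general-traffic genes 5.0% and 30.0%. With a difference of at least 2-fold as well, 28 of the 58 were higher and 3 lower, where 17.2% and 15.8% of all features passed, and a test against a 1.5-fold difference (limma's treat) gave 24 and 3, where 14.1% and 13.2% passed. The median log2 difference was 2.78 for the neuronal genes and 0.05 for the general-traffic genes, against 0.04 for all features. For 11 neuronal genes the log2 difference was above 4, a size that 1.12% of all features reached. The values of the 3 cerebellum arrays lay entirely above those of the 3 livers for 31 neuronal and 2 general-traffic genes, and entirely below them for 1 and 6. Among all features, 30.9% lay entirely above and 28.4% entirely below. These splits depend on how the tissues are scaled. With the arrays aligned on ribosomal, proteasome and respiratory chain genes, which moves the median difference of all features by 0.53, 41 of the 58 genes were higher and 3 lower, where 47.0% and 13.8% of all features were, so that 93.2% of the calls were toward cerebellum in place of 79.5%. Over all features that share was 77.3% in place of 52.8%. The general-traffic counts became 8 higher and 2 lower, and their median became 0.58, so the lean of their calls was reversed.

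**Figure D1:**
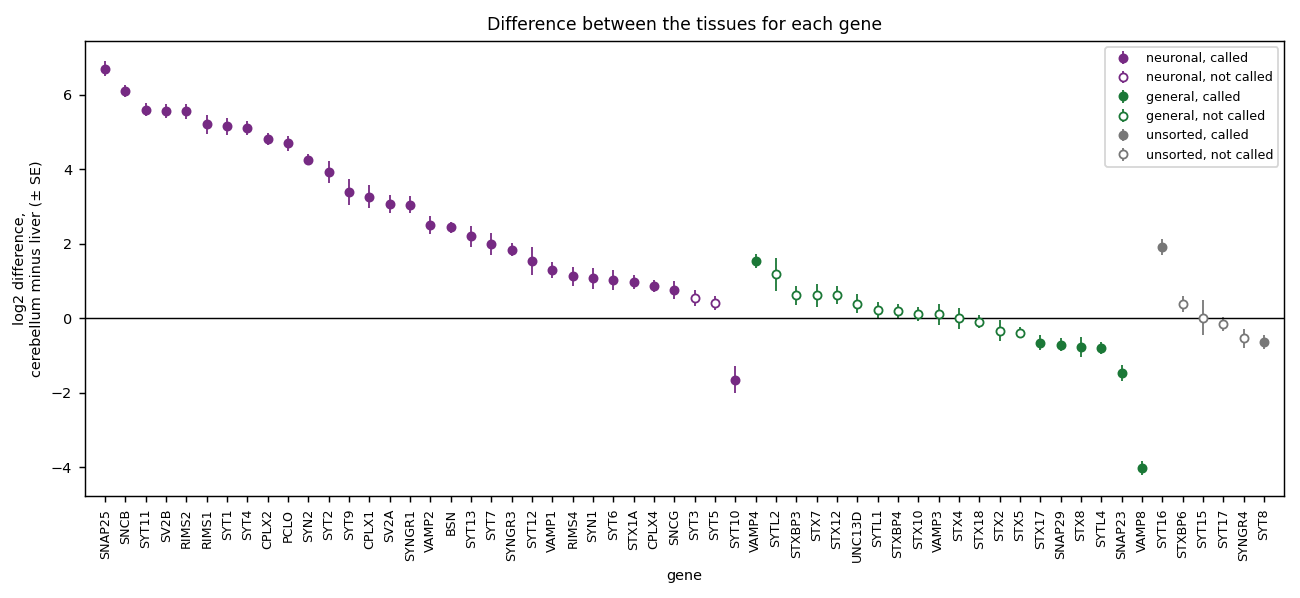
Log2 difference between the tissues for each of the 58 genes (vertical axis, cerebellum minus liver, points with standard errors), by class and ordered by size within it. Filled points passed an adjusted p of 0.05 (limma). Neuronal genes run from 6.70 for SNAP25 to -1.65 for SYT10, and general-traffic genes from 1.53 for VAMP4 to -4.02 for VAMP8.

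The SNAREs of the plasma membrane parted most clearly within the SNAP family. SNAP25, which gives the synaptic complex a pair of its helices, had intensities of 4700, 3676 and 4194 in the cerebellum arrays and 28.1, 28.3 and 15.9 in the liver arrays. Its log2 difference of 6.70 ± 0.20 (SE; limma, adjusted p = 1.51e-07) was the largest of the 58 genes, also with the pseudocounts of 10.2 and 30.3 that were tried in place of 16.8. SNAP23, its paralog in non-neuronal cells, had 144, 87.5 and 118 in cerebellum and 328, 312 and 407 in liver. It was lower in cerebellum by a log2 difference of -1.47 ± 0.21 (limma, adjusted p = 5.18e-04). The groups of either gene did not overlap, and the paralogs moved in opposite directions. Set as a ratio on each array, SNAP25 over SNAP23 changed between the tissues by 8.16 on the log2 scale.

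Among the syntaxins that sit in the plasma membrane, STX1A, the neuronal one, was at 134, 150 and 140 in cerebellum and 48.3, 65.4 and 78.2 in liver. Each cerebellum was above each liver, and the log2 difference was 0.98 ± 0.19 (limma, adjusted p = 0.00261). STX4, which serves insulin-driven and other regulated secretion outside neurons, was at 98.6, 49.6 and 88.2 in cerebellum and 75.8, 52.7 and 107 in liver. Its groups overlapped throughout, and its difference was 0.01 ± 0.28 (limma, adjusted p = 0.988). STX2, known from epithelia, was at 166, 124 and 158 in cerebellum and 159, 137 and 312 in liver. It was not called (log2 difference -0.33, limma adjusted p = 0.380), and its high value is that of liver 3, without which the difference was 0.01. STX3, STX11 and STX19 were not analysed here.

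The vesicle SNAREs showed every kind of pattern. VAMP2, the main synaptobrevin of brain synapses, was at 677, 779 and 481 in cerebellum and 85.7, 127 and 85.5 in liver, a log2 difference of 2.50 ± 0.23 (limma, adjusted p = 4.06e-05). VAMP1, the other neuronal synaptobrevin, was at 171, 176 and 123 in cerebellum and 67.3, 43.1 and 51.7 in liver, a log2 difference of 1.29 ± 0.21 (limma, adjusted p = 9.63e-04). Both were above all livers in every cerebellum. VAMP3, or cellubrevin, the close relative that recycles endosomes in most cells, was at 897, 536 and 432 in cerebellum and 477, 514 and 683 in liver. Its groups overlapped and its difference was 0.10 ± 0.28 (limma, adjusted p = 0.786). Cerebellum 1, with the high myelin markers, held the highest VAMP3 value, and without it the difference was -0.19. The part of myelin in it was not tested.

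VAMP8, a SNARE of late endosomes and of secretory granules in gland and blood cells, gave the largest difference toward liver among the 58 genes. It was at 21.9, 27.2 and 18.7 in cerebellum and 578, 546 and 759 in liver, a log2 difference of -4.02 ± 0.19 (limma, adjusted p = 9.04e-07). All livers were above all cerebella by a wide margin. Markers of macrophages moved the same way. All 4 measured were lower in cerebellum, with sums of 95.7 to 140 there and 1593 to 3160 in liver, and hepatocyte markers, all 5 lower, summed to 52.3 to 131 and 19455 to 21755. Other cell types of liver moved the same way too, with 3 of 4 endothelium markers (70.6 to 213 in cerebellum, 756 to 1360 in liver), all 3 of fibroblasts and stellate cells (145 to 507, 1028 to 3162), all 3 of neutrophils (78.4 to 107, 199 to 338) and 5 of 7 of lymphocytes and NK cells (162 to 225, 925 to 1298) lower in cerebellum. Of the 3 bile duct markers only EPCAM was lower, while KRT19 and KRT7 overlapped between the tissues and were not called. The part of any of these cells in the VAMP8 difference was not tested. VAMP4, which works at the trans-Golgi network, went the other way, at 590, 715 and 798 in cerebellum and 257, 220 and 214 in liver. Its log2 difference was 1.53 ± 0.18 (limma, adjusted p = 1.65e-04), which made it the only general-traffic gene of the 20 called higher in cerebellum on the deposited scale.

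**Figure D2:**
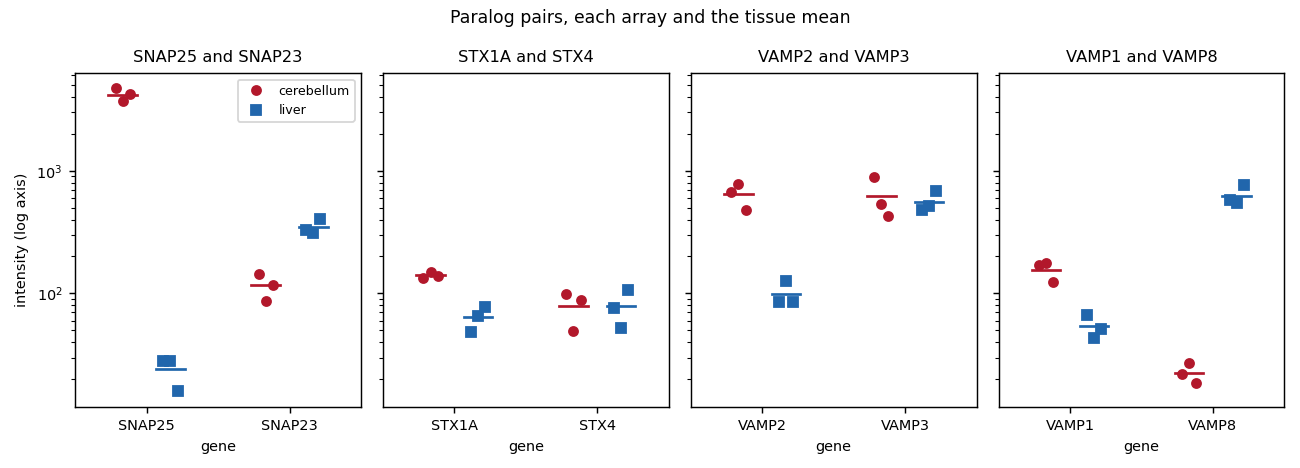
Intensity (log axis) of both genes of each paralog pair on the 3 cerebellum arrays (circles) and the 3 liver arrays (squares), with bars at the tissue means. SNAP25 and SNAP23 part in opposite directions, as do VAMP1 and VAMP8, while STX4 and VAMP3 overlap between the tissues where STX1A and VAMP2 do not.

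Of the 12 paralog pairs planned, 4 had both genes measured. The log2 ratio of the neuronal gene to its paralog changed between the tissues by 8.16 for SNAP25 and SNAP23, 5.32 for VAMP1 and VAMP8, 2.40 for VAMP2 and VAMP3, and 0.98 for STX1A and STX4. For VAMP2 and VAMP3 the ratios were -0.40, 0.53 and 0.15 in cerebellum and -2.27, -1.88 and -2.77 in liver. For STX1A and STX4 they were 0.38, 1.33 and 0.58 in cerebellum and -0.51, 0.24 and -0.38 in liver. In all 4 pairs the cerebellum ratios lay above all liver ratios. An exact two-sided permutation test over the 6 arrays gave p = 0.1 for each pair (0.1 after adjustment over the 4), the smallest that 3 against 3 arrays can give. These ratios do not depend on how the arrays are scaled against each other.

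**Figure D3:**
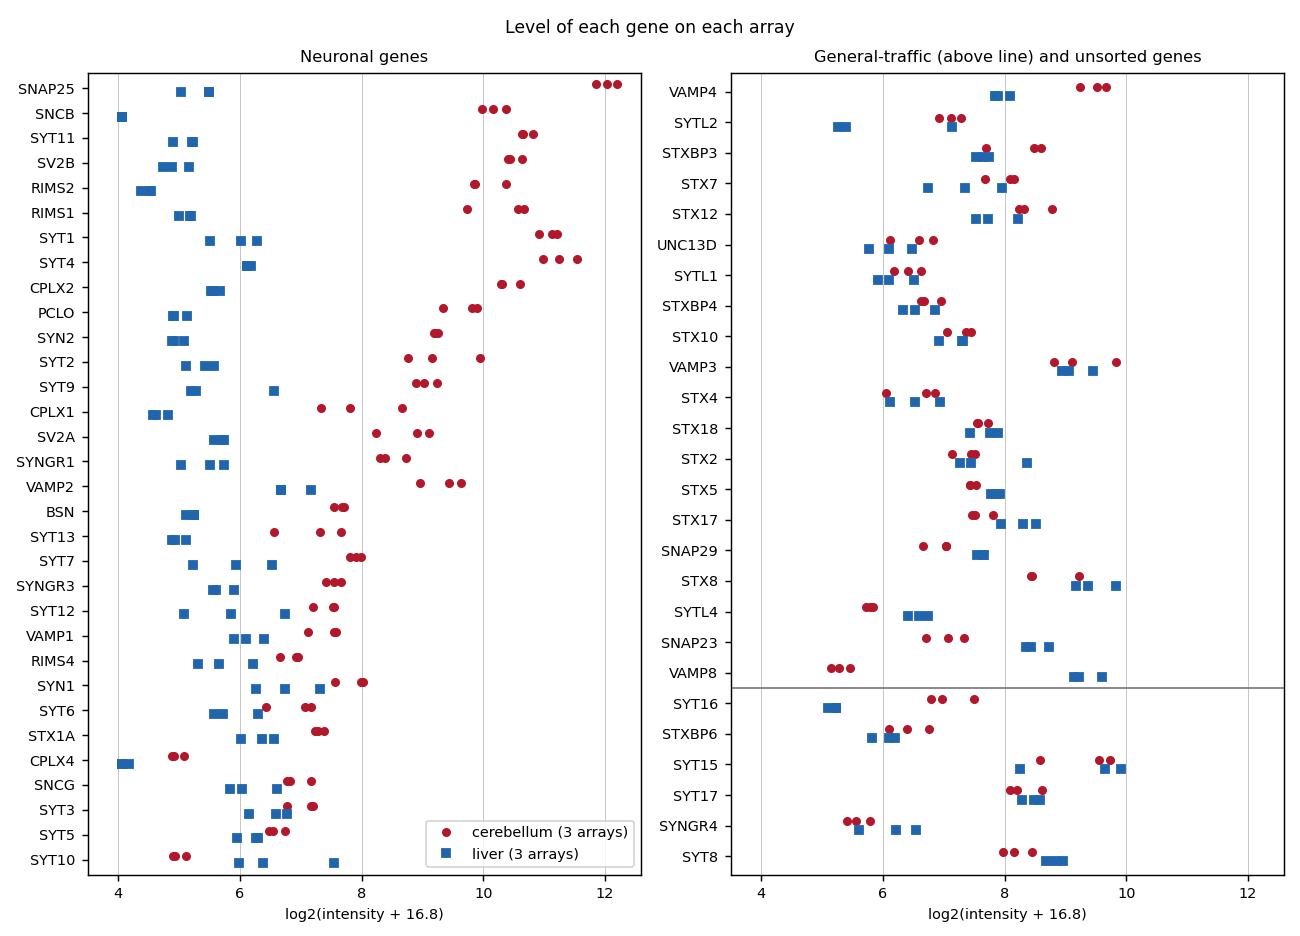
Level of each of the 58 genes, as log2(intensity + 16.8), on the 3 cerebellum arrays (circles) and the 3 liver arrays (squares), ordered by difference within each class. The tissues are apart for nearly all neuronal genes on the left and mixed for most general-traffic genes on the right, where VAMP8 and SNAP23 lie higher in liver and VAMP4 higher in cerebellum.

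The synaptotagmins are membrane proteins with paired C2 domains, and those that bind calcium through them trigger or tune release. Of the 12 sorted as neuronal, 9 were higher in cerebellum, 1 lower and 2 not called (limma). That is 75.0% higher and 8.33% lower, beside 26.7% and 23.9% of all features. SYT1, the calcium sensor of fast release in forebrain, was at 1927, 2367 and 2215 in cerebellum and 48.0, 61.0 and 29.0 in liver, a log2 difference of 5.15 ± 0.23 (limma, adjusted p = 5.80e-07). SYT2, the fast sensor of hindbrain and cerebellar synapses, was at 416, 973 and 553 in cerebellum and 26.1, 30.7 and 18.0 in liver. Its log2 difference was 3.92 ± 0.30 (limma, adjusted p = 1.23e-05), and cerebellum 2 had the highest value by far. SYT9, also a fast sensor, differed by 3.38, and SYT7, a slower sensor of high affinity, by 2.00. Liver 1 was high for SYT9, at 77.3 against 19.9 and 22.0, but still below every cerebellum, where the lowest value was 462.

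SYT4 and SYT11, close relatives whose first C2 domain does not bind calcium in the usual way, were among the largest differences. SYT4 was at 1996, 2960 and 2410 in cerebellum and 52.6, 56.1 and 52.3 in liver, a log2 difference of 5.12 ± 0.19 (limma, adjusted p = 3.05e-07). SYT11 was at 1600, 1791 and 1580 in cerebellum and 20.6, 13.0 and 20.2 in liver, a log2 difference of 5.60 ± 0.17 (limma, adjusted p = 1.72e-07). Neither gene had a liver value near its cerebellum range. SYT13 and SYT12, which are held not to bind calcium, differed by 2.20 and 1.53. For SYT12 the livers were spread over 17.0, 41.3 and 90.5, with liver 3 the highest, against 131 to 171 in cerebellum.

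The exception among these genes was SYT10, a calcium sensor known in mouse from growth factor secretion by olfactory bulb neurons. It was at 17.9, 13.3 and 14.0 in cerebellum and 170, 66.7 and 46.9 in liver, a log2 difference of -1.65 ± 0.36 (limma, adjusted p = 0.00497). The groups did not overlap, and 2 of the 3 cerebellum values lay below the 16.8 that marks the 10th percentile of all values. Liver 1 was the highest, and without it the difference was -1.20. SYT6, of the same subgroup, differed by 1.02 toward cerebellum (limma, adjusted p = 0.0126), with adjusted p = 0.0521 without cerebellum 1 and 0.0535 without cerebellum 3. SYT3 and SYT5 were not called, with log2 differences of 0.55 and 0.41 (limma, adjusted p = 0.0673 and 0.0853), though all 3 cerebella were above all livers for both.

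Complexins bind the assembled SNARE helices. CPLX2 was at 1235, 1257 and 1539 in cerebellum and 30.2, 29.5 and 34.5 in liver, a log2 difference of 4.81 ± 0.17 (limma, adjusted p = 2.42e-07). CPLX1, the second brain complexin, was at 208, 390 and 144 in cerebellum and 11.4, 7.18 and 7.83 in liver, a log2 difference of 3.27 ± 0.31 (limma, adjusted p = 4.68e-05). Its cerebellum values had the widest spread of the 58 genes on the log2 scale, and cerebellum 2 was again the highest. CPLX4, a complexin of retinal ribbon synapses in mouse, was called with 0.86 (limma, adjusted p = 0.00212), at 12.9, 13.6 and 17.2 in cerebellum and -4.64, -0.530 and 1.43 in liver. Its values were dim in both tissues, with 5 of the 6 below 16.8. The liver values below 0 were set to 0 before the fit, which narrowed their spread.

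The scaffolds that place vesicles at calcium channels were all higher in cerebellum, 5 of 5 measured, beside 26.7% of all features. RIMS1 and RIMS2, which bind RAB3 on the vesicle and tether calcium channels, had log2 differences of 5.20 ± 0.26 (limma, adjusted p = 1.10e-06) and 5.56 ± 0.20 (limma, adjusted p = 2.42e-07). RIMS1 was at 1611, 839 and 1507 in cerebellum and 19.9, 19.5 and 15.3 in liver. RIMS2 was at 1313, 908 and 918 in cerebellum and 4.04, 6.13 and 6.39 in liver. All cerebella were far above all livers for both, with cerebellum 2 the lowest for either gene. All 3 liver values of RIMS2 lay below 16.8, so its size rests on the pseudocount, with 6.05 for 10.2 and 4.89 for 30.3. The same holds in kind for the other 7 neuronal genes with a liver mean under 16.8, which were CPLX1, CPLX4, PCLO, SNCB, SV2B, SYN2 and SYT13.

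PCLO, which encodes the giant scaffold piccolo, was at 934, 633 and 886 in cerebellum and 13.5, 18.5 and 13.1 in liver, a log2 difference of 4.70 ± 0.20 (limma, adjusted p = 5.28e-07). Its dimmer feature, which was set aside, differed by 3.82 in the same direction. BSN, which encodes the related scaffold bassoon, differed by 2.44, with little spread in either tissue, at 193, 188 and 170 in cerebellum and 21.3, 18.0 and 21.4 in liver. RIMS4, a short RIM with a single C2 domain, differed by 1.13, at 84.9, 105 and 108 in cerebellum and 57.5, 33.7 and 22.8 in liver. UNC13D, the priming factor of cytotoxic granules in blood cells, overlapped between the tissues (log2 difference 0.39, limma adjusted p = 0.226), and the neuronal UNC13A, UNC13B and UNC13C were not analysed here.

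All 6 measured genes sorted as neuronal that encode proteins of the synaptic vesicle membrane or surface were higher in cerebellum, beside 26.7% of all features. SYNGR4, an unsorted synaptogyrin, was not called (log2 difference -0.54, limma adjusted p = 0.112). SV2B, a vesicle glycoprotein, was at 1576, 1340 and 1377 in cerebellum and 9.97, 12.7 and 19.0 in liver, a log2 difference of 5.57 ± 0.18 (limma, adjusted p = 1.94e-07). SV2A, the binding site of the antiepileptic drug levetiracetam, differed by 3.07. The synapsins, which cluster vesicles in the terminal, differed unequally, SYN2 by 4.26 and SYN1 by 1.08. SYN2 was at 567, 576 and 598 in cerebellum and 17.1, 12.7 and 13.4 in liver, and SYN1 was at 172, 244 and 236 in cerebellum and 144, 90.1 and 60.4 in liver. SYN1 thus parted the tissues only narrowly, with cerebellum 1 just above liver 1. The synaptogyrins SYNGR1 and SYNGR3 differed by 3.05 and 1.84.

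Of the synucleins, small proteins that bind vesicle lipids and assist SNARE assembly, SNCB and SNCG were measured. SNCB was at 988, 1310 and 1122 in cerebellum and -1.57, -0.945 and -0.476 in liver. Every liver value was below 0, so no fold is given. The log2 difference of 6.10 ± 0.17 (limma, adjusted p = 1.51e-07) rests on the pseudocount and was 6.80 with 10.2 and 5.26 with 30.3 in place of 16.8. All livers were set to 0 before the fit, so the SE and adjusted p include no spread between livers for this gene. SNCG, known from peripheral and motor neurons, was at 97.1, 128 and 92.4 in cerebellum and 81.2, 48.8 and 40.4 in liver. Its log2 difference of 0.76 (limma, adjusted p = 0.0264) lost its call when any of the 3 cerebella or liver 2 or liver 3 was left out, with adjusted p from 0.0513 to 0.0850.

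The SNAREs of the endosome, Golgi and endoplasmic reticulum gave 3 genes lower in cerebellum, 0 higher and 5 not called (limma), which is 37.5% of the 8 lower, beside 23.9% of all features lower and 26.7% higher. At an unadjusted p under 0.05 there were 4 lower and 1 higher, where 26.9% and 29.7% of all features passed. SNAP29, a soluble partner of several syntaxins, was at 84.9, 114 and 114 in cerebellum and 187, 170 and 184 in liver, a log2 difference of -0.71 ± 0.18 (limma, adjusted p = 0.00929). STX17, the syntaxin of autophagosomes, was at 161, 209 and 166 in cerebellum and 350, 301 and 230 in liver, a log2 difference of -0.66 ± 0.20 (limma, adjusted p = 0.0261). The groups of both did not overlap. STX8, of late endosomes, was called at -0.76 ± 0.27 (limma, adjusted p = 0.0445) although its groups overlapped, at 327, 579 and 334 in cerebellum and 562, 900 and 645 in liver.

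With the arrays aligned on general genes these 3 calls were lost, at log2 differences of -0.18 for SNAP29, -0.13 for STX17 and -0.23 for STX8 (limma, adjusted p = 0.453, 0.625 and 0.400). STX17 also lost its call without cerebellum 1 or 3 or liver 1 or 2, and STX8 without cerebellum 1 or 3 or liver 2 or 3. STX5, of the early Golgi, was lower on every cerebellum array than on every liver array but was not called (log2 difference -0.39, limma adjusted p = 0.0699). STX12 and STX7, of recycling and late endosomes, had log2 differences of 0.62 each and were not called (limma, adjusted p = 0.0583 and 0.124). Liver 3 was the highest liver for both, and without it they were called at 0.81 and 0.92 (limma, adjusted p = 0.0159 and 0.0175). STX10 and STX18, of the trans-Golgi network and the endoplasmic reticulum, differed by 0.11 and -0.09 and overlapped between the tissues.

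Synaptotagmin-like proteins bind RAB27 on secretory organelles. SYTL4, known as granuphilin from insulin granules, was at 36.3, 40.4 and 38.2 in cerebellum and 90.4, 68.3 and 80.3 in liver, a log2 difference of -0.80 ± 0.17 (limma, adjusted p = 0.00391). That call was lost with the arrays aligned on general genes (log2 difference -0.27, limma adjusted p = 0.286). SYTL2 was at 122, 104 and 140 in cerebellum and 25.4, 21.7 and 124 in liver, so liver 3 alone lay within the cerebellum range. The log2 difference of 1.18 ± 0.45 was not called (limma, adjusted p = 0.0571), and without liver 3 it was 1.78 (limma, adjusted p = 1.75e-04). Liver 3 is the array on which markers of fibroblasts, macrophages and bile ducts were highest, and their part in SYTL2 was not tested. SYTL1 differed by 0.23 and overlapped between the tissues.

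None of the 3 measured syntaxin-binding proteins was called (limma), and at an unadjusted p under 0.05 there was 1, STXBP3. This protein, which pairs with STX4 at the plasma membrane, was at 373, 191 and 340 in cerebellum and 168, 184 and 199 in liver. It was not called (log2 difference 0.62, limma adjusted p = 0.0705), and cerebellum 2 lay within the liver range. Without cerebellum 2 it was called at 0.90 (limma, adjusted p = 0.00559). STXBP4 and STXBP6 differed by 0.19 and 0.38 and were not called.

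Among the remaining unsorted genes, SYT16 was at 94.4, 164 and 109 in cerebellum and 20.6, 21.0 and 17.4 in liver, a log2 difference of 1.90 ± 0.21 (limma, adjusted p = 1.15e-04). SYT8 was at 268, 236 and 335 in cerebellum and 437, 480 and 394 in liver, a log2 difference of -0.63 ± 0.19 (limma, adjusted p = 0.0227). That call was lost with the arrays aligned on general genes and without cerebellum 1 or 2 or liver 2. SYT15 ran from 368 to 838 in cerebellum and from 289 to 945 in liver, with no difference beyond that spread (log2 difference 0.02 ± 0.46). SYT17 differed by -0.15 and was not called.

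Partners of the same pathway outside these families were sorted in the same way as neuronal or general. Of 13 measured genes of synaptic partners, 12 were higher in cerebellum and 0 lower (limma), which is 92.3% higher, beside 26.7% of all features. At an unadjusted p under 0.05 there were 13 and 0, where 29.7% and 26.9% of all features passed. The median log2 difference was 2.94. DNM1, the dynamin that recovers synaptic vesicles, was at 1332 ± 135 in cerebellum and 24.6 ± 6.92 in liver (SD, n = 3 each), a log2 difference of 5.04. CADPS and CADPS2, which prime dense core vesicles, differed by 4.69 and 4.07. NAPB, the brain form of the SNAP adaptor that recruits the ATPase NSF to used SNARE complexes, differed by 4.42. SH3GL2, which encodes endophilin A1, was not called (log2 difference 0.88, limma adjusted p = 0.0599).

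Of 29 measured genes of general fusion machinery, 7 were higher, 7 lower and 15 not called (limma), with a median log2 difference of 0.27. That is 24.1% in each direction, beside 26.7% and 23.9% of all features. ERC1, VPS45, NAPG and EXOC6 were called higher in cerebellum, with log2 differences of 1.80, 1.60, 1.43 and 0.99. SCFD2, USE1, TXLNA and SNAPIN were called lower, with -1.11, -1.07, -1.06 and -0.98. NAPA, the general form of the same adaptor as NAPB, differed by 0.31 (limma, adjusted p = 0.246). With the arrays aligned on general genes, the 42 partners gave 30 higher and 1 lower in place of 19 and 7, while over all features the share of calls toward cerebellum became 77.3% in place of 52.8%.

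The spread between arrays of a tissue was of the same order for these genes as for the rest of the array. The median SD on the log2 scale was 0.22 in cerebellum and 0.24 in liver for the 58 genes, and 0.20 and 0.26 for all features. Within cerebellum the genes did not vary as a block. Replicate 2 held the highest cerebellum value of SYT2, CPLX1, SV2A and SYT4 and the lowest of SNAP25, RIMS1, PCLO and SYT13. SYT13 was at 143, 77.2 and 185. On the same array Purkinje cell markers summed to 6578, against 3911 and 4278 in cerebellum 1 and 3, while neuron markers summed to 4978 against 5111 and 4828. Astrocyte markers summed to 9022 on it, against 5936 and 7699, and oligodendrocyte markers to 1048, against 4442 and 1550. Its fibroblast and endothelium sums were the highest of the cerebella, the fibroblast sum mostly through DCN. The part of cell make-up in these values was not tested. Within liver the widest spread was that of SYTL2, SYT15, SYT12 and SYT10, with SDs of 1.04, 0.89, 0.83 and 0.81 on the log2 scale. Against the mean of the other livers, liver 3 was higher for 13 of 20 general-traffic genes and for 9 of 32 neuronal genes. The first count is not particular to liver 3, as it was also 13 for cerebellum 1 within its tissue, and 5 for liver 2. For the neuronal genes the other arrays had 15 to 19. The share over all features was not counted.

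**Figure D4:**
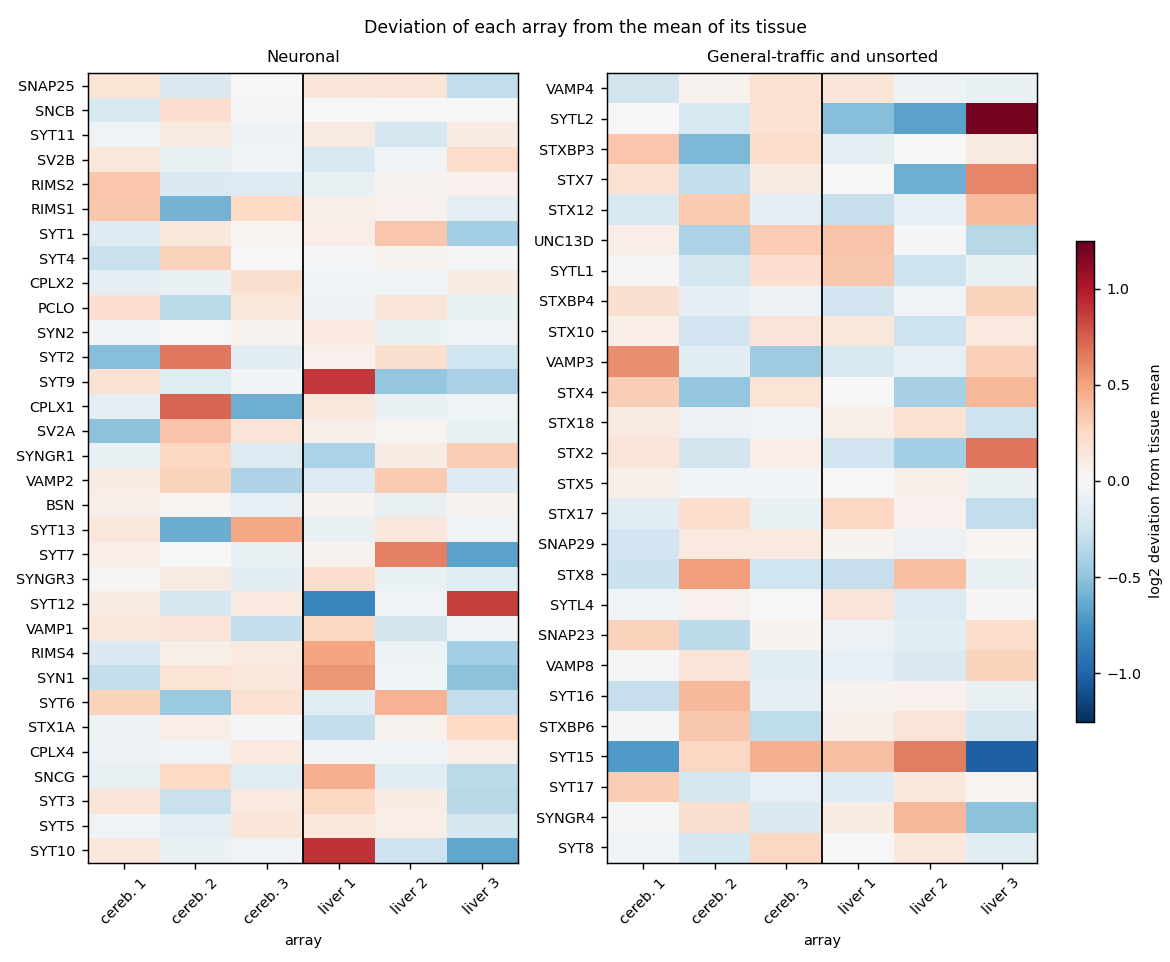
Deviation of each array from the mean of its tissue on the log2 scale (colour) for the neuronal genes (left) and the general-traffic and unsorted genes (right), with the cerebellum arrays left of the liver arrays in each. Cerebellum 2 is high for SYT2 and CPLX1 and low for RIMS1 and SYT13, liver 1 is high for SYT9 and SYT10, and liver 3 is high for SYTL2, STX2 and STX7.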

How the data were processed

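Intensities of 6 arrays were used as deposited, 1 value per array for each of 15143 features. The submitters' processing notes name GCOS. How background was corrected, how probes were summarised and which probes were chosen is not given in the sources used here. Sorted, the authors' deposited intensities are the same on every array, with 0 positions that differ, so they had been quantile normalized, and 93 values per array lie below 0. The number of arrays limits the precision, and p values cover the spread between 3 samples per tissue.

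The array's platform annotation gave 1 gene symbol for 12685 features. Of several features with the same symbol, that of highest mean was kept. Values below 0 were set to 0, and log2(intensity + 16.8) was fitted with limma 3.58.1 in R 4.3.3 (lmFit and eBayes, two-sided, no block, no filter), where 16.8 is the 10th percentile of all values. Differences of dim genes are understated on this scale. The members and lists were chosen with earlier results of these data known. Per-array values are given for the paralog pairs, the 10 largest called differences in each direction and genes called against their class, and others were added after their values were seen. Of the partner genes, the 4 largest called in each direction were named, and further ones were chosen after their values were seen. The fit was tested on simulated data. Alternatives were a replicate block, other pseudocounts, 2 other scalings, a filter on dim features, a variance trend, the dimmer feature of a symbol, stricter calls and leaving out each array.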

Additional observations from a re-analysis of the deposited data

How the results depend on the processing

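Of the 39 called genes, 32 kept their call and direction in every fit tried that left out an array, changed the pseudocount or scaling, filtered dim features, added a block or a variance trend, except that CPLX4 was too dim to be tested without dim features. The other 7 were SNAP29, SNCG, STX17, STX8, SYT6, SYT8 and SYTL4. Aligning the arrays on 115 general genes gave 3 genes lower, 8 general-traffic genes higher and 2 lower, 30 partners higher and 1 lower, and medians of 3.30 for neuronal and 0.58 for general-traffic genes, and it turned the uncalled differences of STX18, STX2, STX5 and SYT17 to 0.44, 0.20, 0.14 and 0.38. Asking for at least 2-fold as well left 3 genes lower, 2 of them general-traffic, and 3 partners lower, and testing against a 1.5-fold difference left 3, 2 and 2. Without dim features 2 general-traffic genes were higher. The replicate block also gave 2, as SYTL2 was called (limma, adjusted p = 0.0212), and changed no other call of the 58 genes. Same-numbered arrays deviated together with r = 0.11, 0.16 and -0.14, and not every array correlated best with its own number. With 3 arrays per tissue, these values cannot tell whether same-numbered arrays share an animal. The labels do not say so either, and the main fit has no block. Leaving out each array in turn gave 5 to 8 genes lower, 1 to 4 general-traffic genes higher, 4 to 7 partners lower, and a general-traffic median from -0.15 to 0.20. It gave differences of uncalled genes from -0.017 to 0.23 for STX10, -0.20 to 0.25 for STX4, -0.19 to 0.32 for VAMP3, -0.49 to 0.37 for SYT15, -0.22 to 0.0094 for STX18 and -0.54 to 0.0062 for STX2. Beyond what fewer arrays or features imply, the cause was not tested. Centring on the array median changes nothing here, since the arrays share their distribution.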

Other observations

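A set noticed after the values were seen is the SNARE complex that fuses autophagosomes with lysosomes, formed by STX17, SNAP29 and VAMP8. All 3 genes were lower in cerebellum, with log2 differences of -0.66, -0.71 and -4.02 (limma, adjusted p = 0.0261, 0.00929 and 9.04e-07), and their cerebellum values did not overlap those of liver. Among all features, 23.9% were called lower and 28.4% lay entirely below. Since the set was picked on these values, the p values are those of the single genes and do not test the set. The calls of STX17 and SNAP29 were lost with the arrays aligned on general genes. YKT6, a SNARE that can also serve this step, and VPS33A, VPS18 and VPS11, subunits of the tethering complex HOPS, were not called, with log2 differences of -0.08, -0.33, -0.25 and 0.62 (limma, adjusted p from 0.168 to 0.759).

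The exocyst tethers secretory vesicles to the plasma membrane, and 7 of its subunits were measured. EXOC1, EXOC5 and EXOC6 were higher in cerebellum, with log2 differences of 0.71, 0.77 and 0.99 (limma, adjusted p = 0.0117, 0.0181 and 0.0222), and 0 were lower. That is 42.9% of the 7 higher, beside 26.7% of all features. At an unadjusted p under 0.05 there were 4 higher and 0 lower, where 29.7% and 26.9% of all features passed. EXOC2, EXOC3, EXOC4 and EXOC7 were not called, with 0.27, 0.15, 0.47 and 0.04. The 7 subunits are among the 29 general partners counted above, of which 24.1% were higher and 24.1% lower. They were not planned as a set of their own, and the difference in share was not tested.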
